A study of Drosophila melanogaster with 8 samples.

Results

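The genes of the proteasome, the protease complex that degrades ubiquitin-tagged proteins, were followed over the circadian day in sorted Drosophila clock neurons. Members were all genes whose symbol begins with Prosalpha, Prosbeta, Rpt and a digit or Rpn and a digit. This rule gave 47 of the 17868 genes in each table. Of these, 32 encode somatic subunits, 14 in the core particle and 18 in the regulatory particle, and 15 are testis-type or "R" copies of a somatic subunit. A subunit gene with another kind of name is not among them. A count was found for 41 of the 47, and 35 passed the filter on low counts, which were all 32 somatic genes and 3 copies.

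RNA came from the brains of adult flies of the genotype ClkGAL4, UAS-GFP-NLS/UAS-mor-RNAi (Bloomington stock 34919). Clk-GAL4 drives both the nuclear fluorescent marker and the interfering RNA against mor, a gene of the Brahma chromatin remodelling complex, in clock neurons. All 8 libraries carried this genotype, and control libraries were not analysed here, so nothing below measures an effect of the knockdown. Flies had 5 days of 12 h light and 12 h dark and then constant darkness, and samples were taken on day 2 of it, at 0, 6, 12 and 18 h of circadian time (CT), with 2 libraries per time. Each library was made from about 2000 live cells that were positive for the marker.

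Proteins marked with ubiquitin chains are caught by receptors on the regulatory particle, stripped of the chain by a deubiquitinase, unfolded by a ring of ATPases and threaded into the core particle, where catalytic beta subunits cut them. Alpha subunits form the outer rings of the core and gate the entry to it. In the fly clock the proteasome is the route by which PERIOD and TIMELESS are removed, after phosphorylation and tagging by ubiquitin ligases that include Slimb and Jetlag. Flies also carry duplicated subunit genes, several of which are known to be used in the male germ line.

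Total estimated counts per library lay between 15006258 (CT12 replicate 2) and 29346348 (CT0 replicate 1), and the floor of 3 counts used here was 0.102 to 0.2 CPM, a count divided by library size, which covers counting error only. Transcripts of mor were at 4.14 to 21.8 CPM, and without a control genotype this range does not measure the knockdown. The neuronal markers elav, nSyb, Syt1, brp and Syx1A summed to between 1301 and 2121 TPM (abundance scaled for gene length and depth). The clock neuron markers, led by the neuropeptide gene Pdf, summed to 94017 TPM in CT6 replicate 2 and to 1015 TPM in CT6 replicate 1, and CT18 replicate 1 was the next lowest at 5224 TPM. Markers of other cells were lower, with sums of 84.4 to 207 TPM for glia, 22.5 to 288 for photoreceptors, 4.58 to 58.7 for hemocytes, 1.65 to 6.62 for fat body and 0.227 to 1.8 for muscle. Members together took between 0.484% (CT6 replicate 1) and 0.66% (CT18 replicate 2) of a library's counts. What the replicates of a time share is not in the labels, and a p-value here reflects the spread between libraries, which may be technical.

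All 32 somatic subunit genes were transcribed in every library, and 25 of them had a mean level between 100 and 300 TPM. The highest was Prosbeta5 (FBgn0029134, 2R 10819978 to 10821178, plus strand), the subunit with the chymotrypsin-like site. Its level was 390.1 and 404.4 TPM (CT0), 393.1 and 369.8 (CT6), 378.2 and 369.1 (CT12) and 476.9 and 524.6 (CT18). The mean was 413.3 ± 56.7 TPM (SD, n = 8), and both CT18 libraries lay above the other 6. Next in level came Prosbeta3 (FBgn0026380, 3R 9005313 to 9006226, minus strand), a beta subunit without a catalytic site, at 358.9 ± 69.8 TPM. It had 338.1 and 279.6 TPM (CT0), 265.6 and 349.6 (CT6), 350.2 and 381.3 (CT12) and 462.8 and 444.1 (CT18). The CT18 libraries were again the highest of the 8, and the CT0 and CT6 values overlapped.

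Of the other catalytic subunits, Prosbeta1, with the caspase-like site, averaged 235.3 ± 31.9 TPM and Prosbeta2, with the trypsin-like site, 154.7 ± 27.8 TPM. The 7 alpha subunits lay between 117.6 ± 14.1 TPM for Prosalpha1 and 235.0 ± 35.0 TPM for Prosalpha2. The 6 ATPases lay between 92.2 ± 10.7 TPM for Rpt5 and 275.5 ± 33.1 TPM for Rpt3. In the lid, the range was 74.1 ± 11.4 TPM for Rpn8 to 201.1 ± 26.5 TPM for Rpn6, with Rpn11, the deubiquitinase, at 188.6 ± 16.5 TPM. The widest range was in the group of scaffolds and ubiquitin receptors. Rpn10, a ubiquitin receptor, was at 327.3 ± 41.0 TPM, the third highest member, and Rpn13, another receptor, at 154.6 ± 25.1 TPM.

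The large scaffold subunits Rpn1 and Rpn2 had the lowest levels. Rpn1 (FBgn0028695, 3L 19915051 to 19918160, plus strand), which docks shuttle proteins, had 50.7 and 61.6 TPM (CT0), 86.0 and 48.3 (CT6), 52.7 and 82.1 (CT12) and 38.9 and 50.7 (CT18). The replicates at CT6 and CT12 differed from each other by more than the means of the times did. Rpn2 (FBgn0028692, 3R 29153524 to 29157255, plus strand), on which Rpn13 sits, had 8.42 and 25.6 TPM (CT0), 37.4 and 16.3 (CT6), 9.79 and 20.2 (CT12) and 7.09 and 11.4 (CT18). Its mean of 17.0 ± 10.4 TPM was the lowest of the 32, and its CT18 libraries were below both CT6 libraries while overlapping those of CT0 and CT12. The highest and lowest means among the 32 differed 24.2-fold, and 7.02-fold when Rpn2 was left out. In the order of levels, 28 of the 31 neighbouring pairs were closer than the larger SD of the pair. Longer genes tended to have lower levels (Spearman −0.349 over 32 genes, −0.209 without Rpn1 and Rpn2), given as a description since these genes share their libraries.

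**Figure D1:**
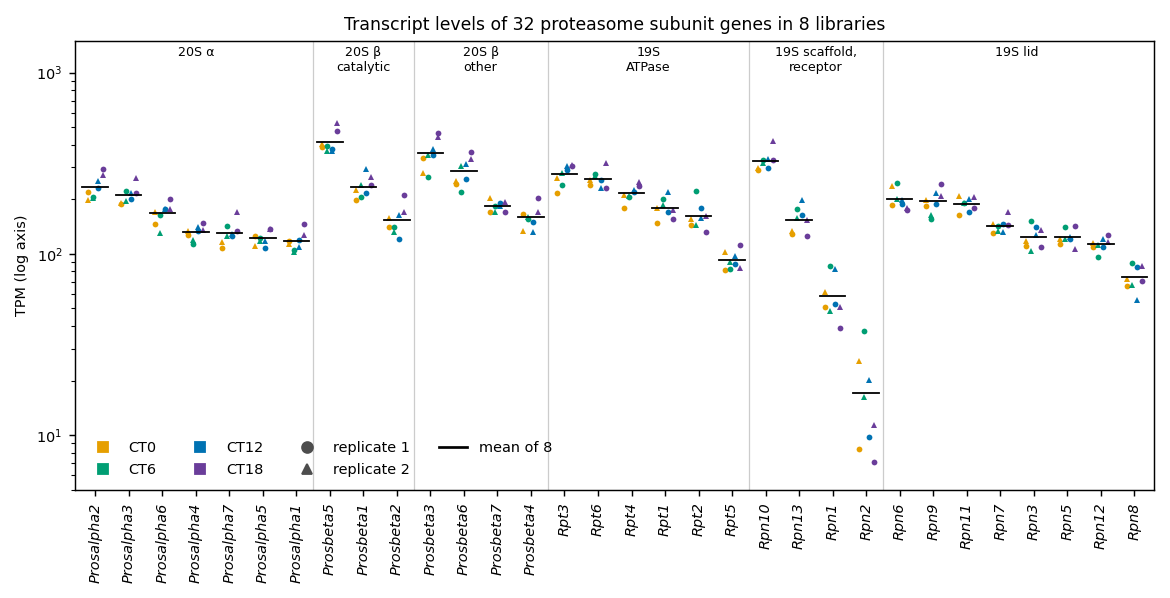
Level of each of the 32 somatic subunit genes in TPM (log axis), by role and, within a role, from high to low. Circles and triangles are replicates 1 and 2, colours are the 4 circadian times and bars are means of 8 libraries; Rpn2, at 17.0 TPM, lies far below the 25 genes between 100 and 300 TPM.

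The testis-type and R copies contributed little. They supplied between 0.0273% (CT6 replicate 1) and 0.1% (CT6 replicate 2) of the counts of all members. No count was found in any library for 6 of the 15, namely Prosalpha3T, Prosalpha4T2, Prosbeta2R2, Prosbeta4R1, Prosbeta4R2 and Rpt4R. For 6 others there were 18 or fewer counts in all. These were Prosbeta2R1 with 18 and Rpn12R with 10, all in CT18 replicate 1, and Prosbeta5R1 with 15, all in CT12 replicate 1. They also included Prosalpha4T1 with 13 in CT6 replicate 2 and 2 in CT12 replicate 2, and Prosalpha6T and Prosbeta5R2 with 1 each. For 4 of these copies, then, at least 10 counts came from within a library while most other libraries had none.

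The 3 copies that passed the filter were Rpt6R, Rpt3R and Rpn13R. Rpt6R had 38 and 33 counts (CT0), 0 and 106 (CT6), 30 and 9 (CT12) and 25 and 49 (CT18), a mean of 1.28 TPM against 259.4 TPM for Rpt6. Rpt3R had 78 and 9 counts (CT0), 28 and 0 (CT6), 59 and 7 (CT12) and 34 and 17 (CT18), a mean of 0.934 TPM against 275.5 TPM for Rpt3. Rpn13R had 7 and 19 counts (CT0), 9 and 8 (CT6), 5 and 17 (CT12) and 25 and 32 (CT18), a mean of 0.829 TPM against 154.6 TPM for Rpn13. Rpt6R and Rpt3R each had a CT6 library with no count, and the times overlapped for both. Rpn13R was at 0.869 and 1.66 CPM at CT18, against 0.326 and 0.381 CPM at CT6, while CT12 replicate 2 reached 1.1 CPM (log2 change CT18 minus CT6 of 1.82 ± 1.60 SE, adjusted p = 0.68 by edgeR's quasi-likelihood test). Reads shared between a copy and its somatic partner would be assigned by the authors' counting, whose rules the sources used here do not give. Of 8 testis markers, 6 (Mst87F, Mst84Da, dj, ProtA, bam and aly) were at 0 in every library, and the list summed to between 4.95 TPM (CT0 replicate 1) and 17.0 TPM (CT6 replicate 1), nearly all from twe.

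No subunit gene passed a test for change over the day with the filter on low counts. For any difference between the 4 times, the quasi-likelihood test of edgeR, Benjamini-Hochberg adjusted over all 9999 genes tested, called 0 of the 35 members, and it called 0% of all genes. At an unadjusted p under 0.05, 0 members stood against 3.3% of all genes. A 24-hour harmonic likewise called 0 members and 0% of all genes, with 0 members against 5.17% of all genes at an unadjusted p under 0.05. Both tests also called 0 of the 8 clock neuron markers, which include per and tim. Of these, 4 had an unadjusted p under 0.05 for any difference and 4 for the harmonic. A gene without a call is therefore not shown to be level over the day. The smallest adjusted p among members in edgeR was 1 for any difference and 0.87 for the harmonic. Limma-voom called 0 members and 0 genes in all 4 tests. DESeq2 also called 0 members, among 47 genes called in all for any difference (0.519%), 39 for the harmonic (0.386%), 13 for CT12 minus CT0 (0.132%) and 67 for CT18 minus CT6 (0.762%). At an unadjusted p under 0.05 it had 0 of 35 members for any difference, against 6.38% of all genes, and 1 for the harmonic (Rpn2), against 7.99%. It had 0 for CT12 minus CT0, against 3.29%, and 4 for CT18 minus CT6 (Rpn2, Rpn9, Prosalpha2 and Prosbeta2), against 13.1%. With no filter on low counts edgeR called Rpn2 for any difference (adjusted p = 0.0254), for the harmonic (0.0104) and for CT18 minus CT6 (0.00503), in a fit that called 249 (1.84%), 250 (1.85%) and 192 (1.42%) of all genes in these tests and 101 (0.748%), with no member, for CT12 minus CT0, against 0 with the filter. The fitted amplitude of the harmonic, from mean to peak, had a median of 0.14 on the log2 scale over the 32 somatic genes, and Rpn2 had 0.73. Over all genes tested the median was 0.29, but that set was not matched in expression. Its spread between libraries was also larger (median biological coefficient of variation 0.311, against 0.197 for the somatic genes). A fitted amplitude grows with that spread, so these medians do not compare how rhythmic the genes were.

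Between the highest and lowest of the 8 libraries, TMM-normalized CPM differed by a median of 1.54-fold over the 32 somatic genes, against 1.77-fold over the 2998 other genes in the same range of mean expression. Prosbeta3 spanned 2.06-fold, Rpn1 2.09-fold and Rpn2 4.66-fold. The SD between replicates of a time had a median of 0.189 on the log2 scale for the somatic genes and 0.276 for those other genes. For a change between opposite times, the 95% interval of a somatic gene reached a median of 0.54 on the log2 scale to either side of its estimate for CT12 minus CT0. In RNA from sorted pools, fewer cells of a type and less RNA per cell cannot be told apart, and all levels here are shares of a library.

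At the start of subjective night against the start of subjective day (CT12 minus CT0), subunit genes were close to level. In edgeR 0 of 35 members were called, against 0% of all genes, and 0 had an unadjusted p under 0.05, against 2.11% of all genes. The log2 change was above 0 for 14 of 35, or 40% of members, against 50.8% of all genes, with a median of −0.07 for members and 0.00 for all genes. On the log2(TPM + 0.1) scale the sign of that median turned, to 0.07 for members, while all genes moved to 0.13, so that members lay at −0.06 relative to all genes. When the trend of each library's counts against gene length was subtracted (the length trend removed), it was above 0 for 16 of 35, against 51.8% of all genes, with a median of −0.02. Both CT12 libraries were above both CT0 libraries for 4 of 32 somatic genes, namely Rpn13, Prosalpha7, Rpn3 and Rpt3, against 12% of all genes, and both were below for 11 of 32, against 13.1% of all genes. Once it was removed these were 2 of 32 (Rpn13 and Rpt3), against 13.5% of all genes, and 7 of 32, against 14% of all genes.

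The members with the smallest p between CT12 and CT0 were Rpn13, Rpn6 and Prosbeta4. Rpn13 (FBgn0033886, 2R 13958545 to 13960404, minus strand) had 168.0 and 202.2 CPM at CT12, against 147.4 and 146.1 CPM at CT0. The groups did not overlap, and the log2 change was 0.33 ± 0.24 SE, with an adjusted p of 1 in edgeR's quasi-likelihood test. Rpn6 (FBgn0028689, 2R 14750166 to 14752910, minus strand), a lid subunit that clamps the regulatory particle to the core, had 274.8 and 288.4 CPM at CT12, against 305.9 and 363.6 CPM at CT0, a log2 change of −0.25 ± 0.23. Prosbeta4 (FBgn0032596, 2L 16731180 to 16732133, minus strand), a beta subunit without a catalytic site, had 79.9 and 64.3 CPM at CT12, against 100.5 and 74.4 CPM at CT0, a log2 change of −0.28 ± 0.27. The 2 libraries of Rpn6 at CT12 lay below those at CT0, those of Prosbeta4 overlapped, and the intervals of all 3 genes included 0.

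**Figure D2:**
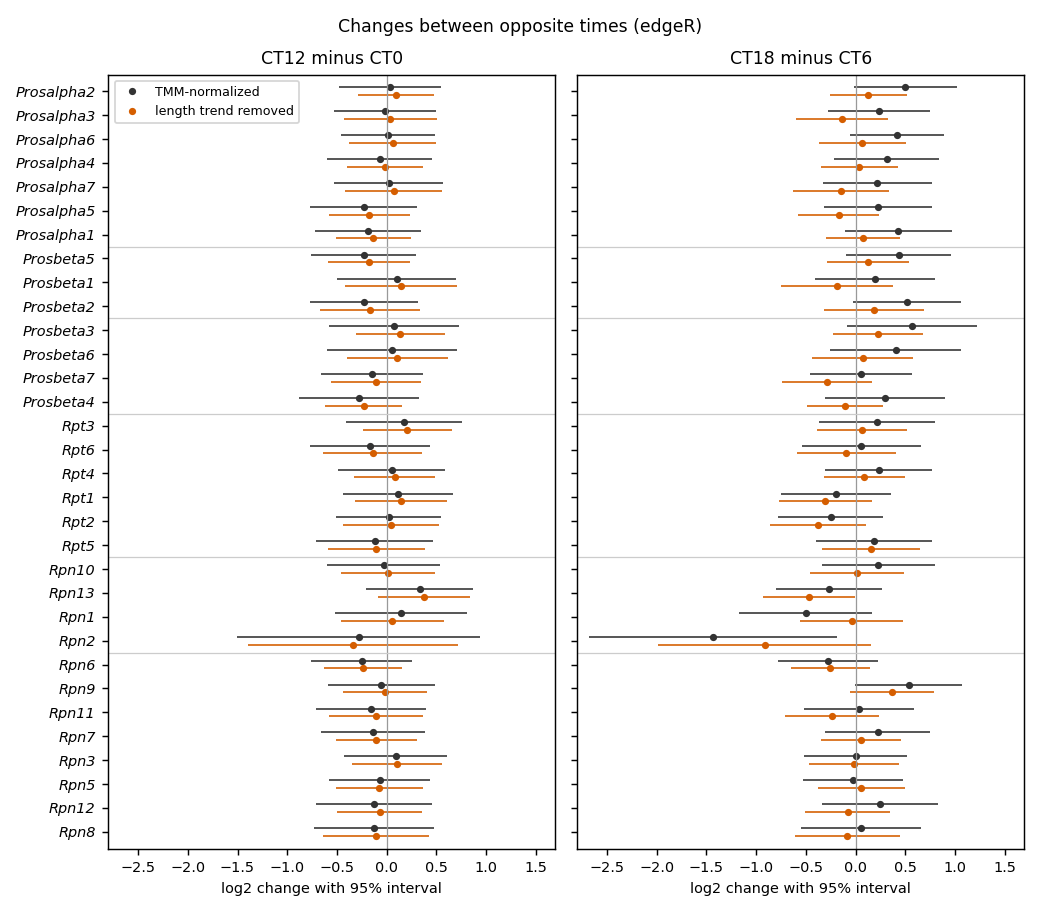
Log2 change of each somatic subunit gene with its 95% interval in edgeR, CT12 minus CT0 (left) and CT18 minus CT6 (right), grouped by role. Black is the TMM-normalized fit and orange the fit with each library's length trend removed; at CT18 minus CT6 all 14 core particle genes lie to the right of 0 in black, and 8 of 14 do in orange.

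Between the middle of subjective night and the middle of subjective day (CT18 minus CT6), core particle genes were higher at CT18 and the scaffold genes were lower, without a member passing the test. In edgeR 0 of 35 members were called, against 0% of all genes. Only Rpn2 had an unadjusted p under 0.05, which makes 1 of 35 members against 9.65% of all genes. The log2 change was above 0 for 27 of 35 members, against 48.4% of all genes, with a median of 0.22 against −0.02, but with each library's trend against gene length removed it was above 0 for 17 of 35, against 47.6% of all genes, with a median of −0.02. Without CT6 replicate 1 it was above 0 for 20 of 35, with a median of 0.05. Markers of other cells also differed between these times: glial markers summed to 172 and 154 TPM at CT18, against 125 and 87.8 TPM at CT6, with 6 of 7 higher (median log2 change 0.61, and 0.64 with the length trend removed). Photoreceptor markers summed to 43.6 and 250.4 TPM at CT18, against 60.9 and 23.6 TPM at CT6, with 5 of 7 higher (median 0.99), and 6 of 7 (1.47) with the length trend removed. Hemocyte markers went the other way, with sums of 4.58 and 16.9 TPM at CT18, against 38.2 and 27.8 TPM at CT6. Of the 4 tested, 0 were higher (median −2.27), and 0 were with the length trend removed. Fat body markers were higher for 2 of 3 tested, and the 1 muscle marker tested was higher. General neuron markers were higher for 1 of 5 (median −0.30), and for 2 of 5 with the length trend removed. Clock neuron markers summed to 5224 and 37582 TPM at CT18, against 1015 and 94017 TPM at CT6. Of these 3 of 8 were higher (median −0.34), and 4 of 8 (−0.02) with the length trend removed. The part of these cells in the differences of the subunit genes was not tested.

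By role, all 14 core genes were higher at CT18 than at CT6 (median log2 change 0.36, between 0.06 for Prosbeta7 and 0.57 for Prosbeta3). That was so for the 7 alpha subunits, the 3 catalytic beta subunits and the 4 other beta subunits, and for 12 of 14 when CT6 replicate 1 (median 0.13) or CT18 replicate 2 (median 0.35) was left out. Removing the length trend left 8 of 14 core genes higher, with a median of 0.05. Without CT6 replicate 2 the core median was 0.55. Of the 18 regulatory genes 11 were higher, with a median of 0.04. That median was −0.09 without CT6 replicate 1 (6 of 18 higher), −0.14 without CT18 replicate 2 (7 of 18), 0.16 without CT6 replicate 2 and 0.19 without CT18 replicate 1 (11 of 18 in both). Removing the length trend left 7 of 18 higher, with a median of −0.06. Within the regulatory particle the count was 4 of 6 ATPases, 6 of 8 lid genes and 1 of 4 scaffold and receptor genes, the exception being Rpn10 at 0.23 ± 0.25 SE.

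Core genes account for most of those whose libraries separated. Both CT18 libraries were above both CT6 libraries for 11 of 32 somatic genes, against 20.1% of all genes, and these were 10 core genes and Rpn9. Both were below for 3 of 32, Rpn2, Rpn1 and Rpn6, against 21.6% of all genes. In 9 of the 32 both CT18 libraries were above all other 6, against 7.29% of all genes, and with the length trend removed in 0 of the 32, against 3.86% of all genes. The highest of the 8 libraries was CT18 replicate 2 for 14 of the 32, against 13.7% of all genes tested, and CT18 replicate 1 for 9, against 15.4%. CT6 replicate 1 was the lowest for 18 of the 32, against 21.7% of the genes detected in all libraries, and the highest for 2, against 23.4% of all genes tested.

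Rpn2 had the largest difference between CT18 and CT6 among the somatic members. It had 21.4 and 37.6 CPM at CT18, against 100.0 and 59.0 CPM at CT6, with 28.0 and 81.0 CPM at CT0 and 28.8 and 61.1 CPM at CT12. Both CT18 libraries lay below both CT6 libraries, and the replicates at CT0 lay farther apart than the means of CT18 and CT6. The log2 change was −1.43 ± 0.55 SE (95% interval −2.68 to −0.19), with an adjusted p of 0.51 in edgeR's quasi-likelihood test and rank 533 by p among the 9999 genes. Leaving out each library in turn gave −1.89 to −1.002, the last without CT6 replicate 1, and removing the length trend gave −0.92 ± 0.47 (−1.98 to 0.15). Rpn1, the other scaffold, had 105.7 and 149.4 CPM at CT18, against 205.1 and 155.9 CPM at CT6. Its log2 change of −0.50 ± 0.30 became −0.04 ± 0.23 with the length trend removed.

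Rpn9 (FBgn0028691, 3R 23731375 to 23733462, minus strand), a lid subunit, had the second smallest p. It had 262.5 and 244.2 CPM at CT18, against 145.5 and 204.5 CPM at CT6, and both CT18 libraries were above all of the others (222.9 and 222.2 CPM at CT0, 203.1 and 226.5 CPM at CT12). The log2 change was 0.53 ± 0.24 SE (95% interval −0.01 to 1.07), with an adjusted p of 0.51 in edgeR's quasi-likelihood test, and 0.37 ± 0.18 with the length trend removed. Leaving out each library in turn gave 0.31 to 0.80. Of the 32 somatic genes, 13 share exon bases with a gene on the opposite strand, Rpn9 among them and neither Rpn1 nor Rpn2, and the sources used here do not say whether reads were counted by strand.

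Prosalpha2 (FBgn0086134, 3R 12431321 to 12432556, plus strand), a subunit of the gated outer ring, had 186.3 and 186.6 CPM at CT18, against 115.2 and 147.9 CPM at CT6. The groups did not overlap, the log2 change was 0.50 ± 0.23 SE (95% interval −0.01 to 1.02), with an adjusted p of 0.51 in edgeR's quasi-likelihood test, and it was 0.13 ± 0.17 with the length trend removed. The catalytic Prosbeta2 (FBgn0023174, 3L 14999951 to 15001319, plus strand) had 159.8 and 138.6 CPM at CT18, against 92.8 and 115.4 CPM at CT6, with 120.8 and 125.3 CPM at CT0 and 91.3 and 119.3 CPM at CT12. Its log2 change of 0.52 ± 0.24 became 0.19 ± 0.22 with the length trend removed. Prosbeta5, the most abundant member, had 392.7 and 467.2 CPM at CT18, against 282.3 and 354.3 CPM at CT6. Its change of 0.43 ± 0.24 became 0.13 ± 0.18. All 3 estimates lay nearer 0 with the trend removed.

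**Figure D3:**
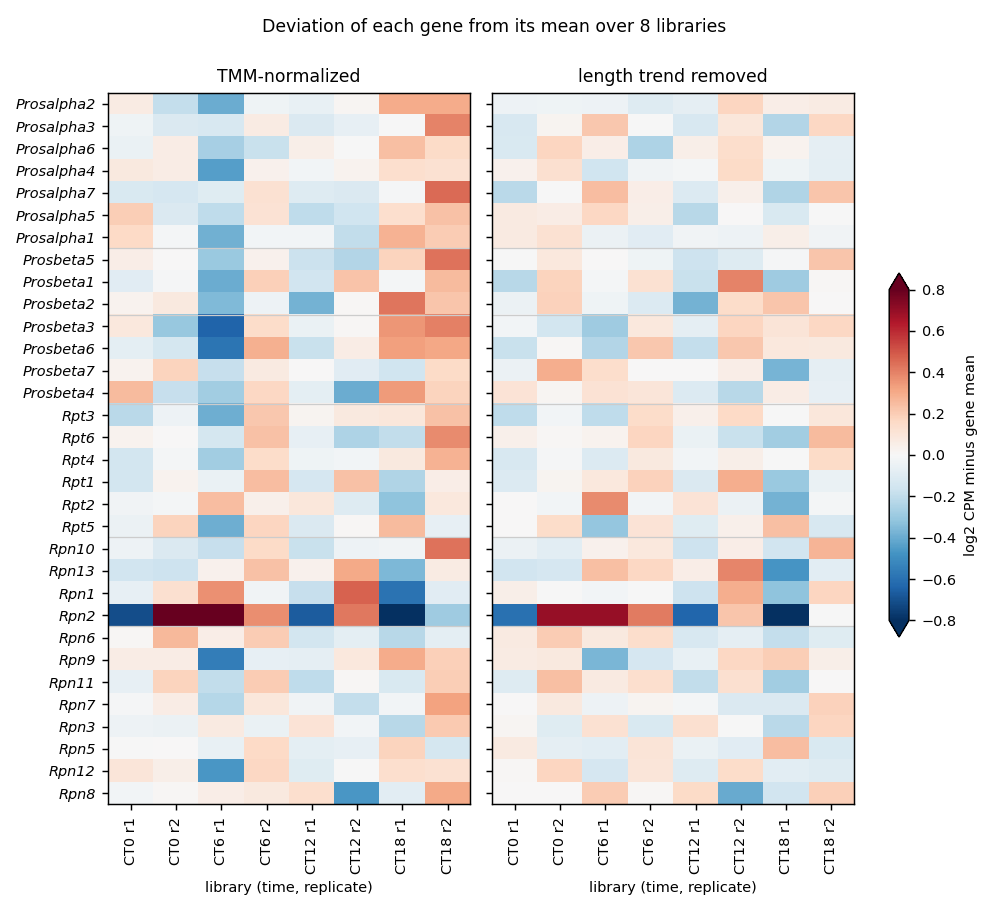
Deviation of each somatic subunit gene (down, by role) from its own mean over the 8 libraries (across), as log2 CPM. The left panel is TMM-normalized and the right has each library's length trend removed, with colours saturating beyond 0.8; the low CT6 replicate 1 and the high CT18 columns of the core genes on the left are mostly absent on the right, while the row of Rpn2 pales (2.84-fold between its highest and lowest library, against 4.66-fold on the left) and stays the row with the widest range.

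Gene length moved with these differences. In each library the deviation of 5766 well-expressed genes from their mean over all libraries was correlated with effective length, the length in bases that counting uses. The Spearman correlation was −0.34 and 0.41 (CT0), 0.68 and −0.22 (CT6), −0.11 and 0.47 (CT12) and −0.53 and −0.56 (CT18). CT6 replicate 1 thus favoured long genes most, and both CT18 libraries favoured short ones. Over the 32 somatic members the correlations were −0.44 and 0.53 (CT0), 0.62 and 0.13 (CT6), 0.08 and 0.17 (CT12) and −0.60 and −0.52 (CT18). After the trend was removed they lay between −0.26 and 0.23.

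Core genes are short, with a median effective length of 745 bases, against 1263 bases for regulatory genes and 1607 bases for all genes tested. At 750 bases the trend stood at 0.23 and 0.23 (log2) in the CT18 libraries and at −0.34 in CT6 replicate 1. At 3300 bases, near the length of Rpn1 and Rpn2, it stood at −0.28 and −0.28 in the CT18 libraries and at 0.44 in CT6 replicate 1. The change CT18 minus CT6 was correlated with length over the 32 members (Spearman −0.69) and over all genes tested (−0.40), and over the members it was −0.16 after removal. These points share their libraries, so no p is given.

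**Figure D4:**
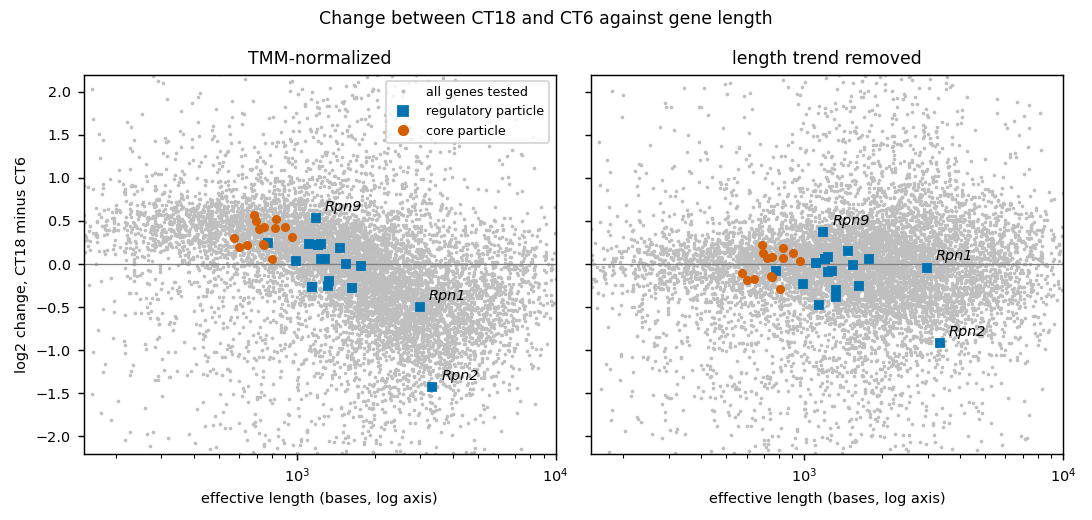
Log2 change between CT18 and CT6 against effective length in bases (log axis) for all genes tested (grey, vertical axis cut at 2.2 to either side), regulatory genes (blue squares) and core genes (orange circles). On the left, TMM-normalized, members follow the downward slope of all genes; on the right, with each library's length trend removed, Rpn2 at −0.92 lies lowest and Rpn9 at 0.37 highest among them.

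The balance between the particles differed in the same way. The mean log2 TPM of core genes minus that of regulatory genes was 0.60 and 0.35 (CT0), 0.22 and 0.45 (CT6), 0.47 and 0.44 (CT12) and 0.82 and 0.65 (CT18). Both CT18 libraries were the highest of the 8 and CT6 replicate 1 was the lowest. With the length trend removed the values were 0.48 and 0.50 (CT0), 0.47 and 0.44 (CT6), 0.44 and 0.56 (CT12) and 0.62 and 0.49 (CT18), so that the CT18 libraries overlapped those of CT0 and CT12. Without Rpn1 and Rpn2 the difference lay between 0.05 (CT6 replicate 1) and 0.45 (CT18 replicate 1) on the uncorrected scale. The summed TPM of all 32 somatic genes was 5411 ± 252 (CT0), 5624 ± 129 (CT6), 5828 ± 272 (CT12) and 6394 ± 183 (CT18) (SD, n = 2 each). That sum is not corrected for the length trend. With the trend removed, the mean deviation of the 32 genes in log2 CPM was not highest at CT18. It was 0.01 ± 0.09 (CT0), 0.04 ± 0.02 (CT6), −0.01 ± 0.11 (CT12) and −0.03 ± 0.12 (CT18) (SD, n = 2 each).

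**Figure D5:**
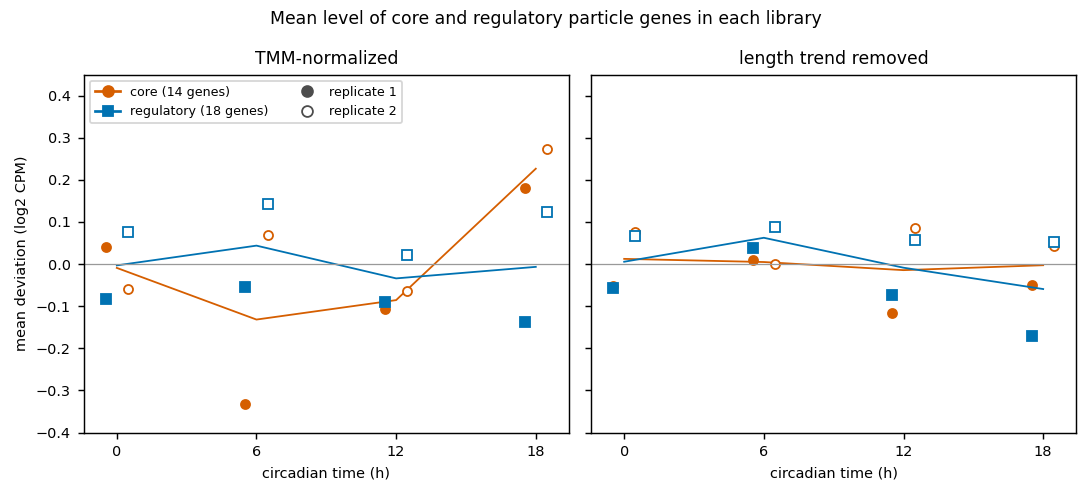
Mean deviation (log2 CPM) of the 14 core genes (orange circles) and 18 regulatory genes (blue squares) in each library against circadian time in hours, filled for replicate 1 and open for replicate 2, with lines through the means. On the left, TMM-normalized, the core runs from −0.33 in CT6 replicate 1 to 0.27 in CT18 replicate 2; on the right, with the length trend removed, it stays between −0.12 and 0.09.

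With the length trend removed, the receptor gene Rpn13 was the 1 somatic gene of 32 with an unadjusted p under 0.05 between CT18 and CT6, against 6.13% of all genes. It had 127.6 and 171.6 CPM at CT18, against 167.5 and 192.8 CPM at CT6, so the groups overlapped before removal. The log2 change was −0.27 ± 0.24 SE and, with the trend removed, −0.47 ± 0.20 (95% interval −0.93 to −0.01), with an adjusted p of 0.78 in edgeR's quasi-likelihood test. Rpn6 had 261.0 and 288.3 CPM at CT18, against 315.4 and 349.7 CPM at CT6, a log2 change of −0.28 ± 0.23 and of −0.25 ± 0.17 with the trend removed. Prosbeta4 had 106.8 and 95.7 CPM at CT18, against 69.8 and 94.6 CPM at CT6, changes of 0.30 ± 0.27 and of −0.11 ± 0.17. After removal, both CT18 libraries were above both CT6 libraries for 5 of 32 genes, against 17.1% of all genes, and below for 8 of 32, against 19.1% of all genes. Rpn9, Prosalpha2, Prosbeta3, Prosbeta2 and Prosalpha1 were above.

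Core genes deviated together from library to library. The mean Pearson correlation over the 8 libraries was 0.62 between pairs of core genes, 0.19 between pairs of regulatory genes, 0.22 between a core and a regulatory gene, and 0.00 between pairs of the 2998 other genes in the same range of expression. Once the length trend was removed these were 0.13, 0.12, 0.11 and 0.00. All pairs share the same libraries, so these are descriptions.

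Genes that work with the proteasome gave 0 calls in edgeR in any of the 4 tests, in each of the 6 lists that follow, against 0% of all genes. The 4 assembly factors and activators, Pomp, PI31, REG and Sem1, had a median effective length of 753 bases. All 4 were higher at CT18 than at CT6 (median log2 change 0.37), and 3 of 4 were with the length trend removed (0.10). Sem1, a small lid-associated protein whose name the member rule misses, was at 0.60 ± 0.38 SE, and PI31, a proteasome regulator, at 0.35 ± 0.26. With the trend removed they were at 0.15 ± 0.20 and 0.05 ± 0.19. Of the 6 deubiquitinases and shuttle proteins 4 were higher at CT18, with Usp14 at 0.26 ± 0.22 and ref(2)P, the p62 homologue, at −0.58 ± 0.32. The count was the same with the length trend removed, with Usp14 at 0.18 ± 0.19 and ref(2)P at −0.33 ± 0.27. Of 5 ubiquitin and E1 genes 3 were higher, with the activating enzyme gene Uba1 at −0.65 ± 0.28 and the polyubiquitin gene Ubi-p63E at −0.72 ± 0.31. The median of that list was 0.33, and −0.11 with the trend removed, when 2 of 5 were higher, Uba1 was at −0.19 ± 0.19 and Ubi-p63E at −0.32 ± 0.24.

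The largest difference in these lists, before the length trend was removed, was in TER94, the segregase that extracts tagged proteins for degradation. It had 97.5 and 110.8 CPM at CT18, against 296.8 and 161.8 CPM at CT6, with 128.9 and 170.7 CPM at CT0 and 148.9 and 200.3 CPM at CT12. Both CT18 libraries lay below both CT6 libraries, as they did for 21.6% of all genes. The log2 change was −1.14 ± 0.32 SE (95% interval −1.86 to −0.41), with an adjusted p of 0.51 in edgeR's quasi-likelihood test. It was −0.65 ± 0.21 with the length trend removed. CT6 replicate 1 was the highest library for TER94, and no value without it is given here. On that corrected scale the shuttle gene Ubqn, singled out after its value was seen, was farther from 0 with a wide error (1.06 ± 0.68). The TER94 cofactor Npl4 was at −0.54 ± 0.24 (−0.34 ± 0.20 corrected), and 1 of the 5 genes in that list was higher at CT18. Of 4 genes around CncC, the transcription factor that raises proteasome genes in flies, 1 was higher, with its partner maf-S at 0.50 ± 0.31 and its inhibitor Keap1 at −0.57 ± 0.39. Correction for length gave 2 of 4 higher, maf-S at 0.05 ± 0.19 and Keap1 at −0.15 ± 0.32. Of 7 ligase genes of the clock 2 were higher, with slmb, which tags PERIOD, at −0.51 ± 0.25 and Cul1 at −0.64 ± 0.24, and with the trend removed 3 of 7 were higher and both named genes lay nearer 0 (−0.10 ± 0.21 and −0.19 ± 0.23).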

How the data were processed

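Polyadenylated RNA of sorted cells was read as paired ends. The authors deposited a TPM value and an estimated count for each gene, per the file headers, with an effective length in bases. The submitters' processing notes name DRAGEN, Salmon and dm6. Their roles, versions, annotation and use of strand: not given in the sources used here. The deposited TPM was used for levels between genes. Estimated counts were rounded and filtered with filterByExpr (minimum count 10, times as groups), which left 9999 of 13512 genes with a count. They were scaled by TMM and tested in edgeR 4.0.16 (R 4.3.3, quasi-likelihood F-test with 4 levels of time, residual degrees of freedom 4, adjusted p under 0.05 over all genes tested), a step tested on simulated data. The length trend is a lowess (span 0.3) of each library's deviation against effective length over genes whose mean log2 CPM reached 4, used as an offset. Alternatives were DESeq2 1.42.0, limma 3.58.1 (voom, and log2 TPM), RLE factors, a minimum of 5 CPM in 2 libraries or none, a replicate block, fits on the 4 libraries compared, and omission of each library. Replicate numbers were not treated as pairs, and the labels do not say what libraries with the same number share. Values per library are given for the 3 members with the smallest p in each test. They are also given for the 2 highest and 2 lowest in TPM, and for copies with at least 10 counts in a library. Of the lists of genes that work with the proteasome and of the CCT list, the 2 genes with the smallest p for any change are named. This rule was not applied to the heat-shock, ribosomal protein and cell marker lists. Other members named beside these, such as those at the ends of a range, were chosen after their values were seen. Positions are from Ensembl release 115 (BDGP6.54). Members and lists were chosen with earlier results of these data known. The choice of leaving out CT6 replicate 1 together with the length trend was made after the data were seen.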

Additional observations from a re-analysis of the deposited data

How the results depend on the processing

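Of the summary counts and medians of members recomputed, 137 were classed as the same (for medians within the spread between replicates) and 13 as moved. Of the other values recomputed, which were counts of all genes called and differences between the particles, 70 were classed as the same and 20 as moved. This tally does not measure stability. Many of the 137 could hardly move, such as counts of members called where 0 genes were called in all. For CT18 minus CT6, the 137 also hold counts of members higher that fell from 27 to 20 without CT6 replicate 1. Without CT18 replicate 2 the count was 21. Without a filter on low counts, edgeR called 1 member (Rpn2) for any difference, 1 for the harmonic and 1 for CT18 minus CT6, against 0 with it. With the length trend removed, the median change CT18 minus CT6 was −0.016 and 17 members were higher; with CT6 replicate 1 also left out, an alternative chosen after the data were seen, these were −0.0339 and 12. On log2(TPM + 1) and log2(TPM + 0.1), the median change CT12 minus CT0 was 0.074 and 0.0745, with 23 and 24 members higher; all genes moved by 0.13 on the second scale, and members relative to them by −0.06. Leaving out each library in turn gave a median change CT18 minus CT6 of 0.0464 (without CT6 replicate 1) to 0.408 (without CT6 replicate 2), with 20 to 28 members higher. For CT12 minus CT0 it gave −0.10 to −0.04, with 10 to 16 higher. Deviations of libraries with the same replicate number correlated between −0.07 and 0.23, so the numbers were not treated as pairs; with the replicate block, 0 members were called, the CT18 minus CT6 median was 0.225 with 26 higher, and the CT12 minus CT0 median was −0.07 with 14 higher. The copies had 290 counts or fewer over 8 libraries; the effect of depth was not tested. The cause of these shifts was not tested.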

Other observations

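The CCT chaperonin, which folds actin and tubulin and is built of 8 subunits, is another complex whose genes all lay on the same side of 0, opposite to that of the core particle. All 8 CCT genes were lower at CT18 than at CT6, with a median log2 change of −0.55, and all 8 still were with the length trend removed, with a median of −0.49, between −0.68 and −0.24. Over all genes tested, the log2 change was above 0 for 48.4%, and for 47.6% with the trend removed. In edgeR 0 of the 8 were called in any of the 4 tests, against 0% of all genes. CCT8 had 63.1 and 94.3 CPM at CT18, against 160.0 and 102.5 CPM at CT6, a log2 change of −0.74 ± 0.31 SE. CCT2 had 58.1 and 74.3 CPM at CT18, against 128.7 and 91.1 CPM at CT6, a log2 change of −0.73 ± 0.34. For both genes the CT18 libraries lay below those of CT6, as they did for 21.6% of all genes. In both, CT6 replicate 1 was the higher CT6 library, and no value without it is given here. A list of 11 heat-shock genes lay on the same side, with 0 of 11 higher at CT18 and a median log2 change of −0.86. With the length trend removed 0 were higher and the median was −0.90. In edgeR 0 of the 11 were called for CT18 minus CT6, and 6 had an unadjusted p under 0.05, against 9.65% of all genes. The part of this difference in the values of the subunit genes was not tested.

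Over the 8 libraries and with the length trend removed, the genes whose pattern was most like the mean deviation of the 32 somatic members, among 5734 candidates, were Ndf (Pearson 0.96), asrij (0.96), RpL7A (0.96), ArfGAP1 (0.96), mask (0.96), CG7889 (0.96), Pgant1 (0.95), CG2852 (0.95), Uba3 (0.95) and RpL10Ab (0.95). Among the members, the correlation with the mean of the others ran from 0.95 for Rpn11 down to −0.65 for Rpn5. Pairs of the 32 somatic members had a mean correlation of 0.12 on this scale. Of 86 ribosomal protein genes tested, with a median effective length of 376 bases, 75 (87.2%) were higher at CT18 than at CT6, against 48.4% of all genes. Their median log2 change was 0.19. With the length trend removed 7 (8.14%) were higher, against 47.6% of all genes, and the median was −0.22. Removal thus turned the sign of the median for these short genes and did not leave them level. Whether it goes too far for short genes was not tested.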
